A study of Mus musculus with 18 samples.

Results

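The genes described here are the leptin receptor gene Lepr, the prolactin receptor gene Prlr, the growth hormone receptor gene Ghr, the transcription factor genes Stat3, Stat5a and Stat5b, and the feedback inhibitor genes Socs1, Socs2, Socs3 and Cish. They were chosen by name, with earlier results of these data known, as receptors, signal carriers and inhibitors of pathways that bear on leptin-pathway mutants. Each was read from the transcript cluster, the array's set of probes for 1 gene, that names it alone and has the highest mean. Of the 10 genes, 9 were read in this way, out of 22180 genes with a cluster of their own. Prlr was not analysed here. All 9 had a mean above the cutoff for dim genes, a log2 signal of 2.99, below which the lowest 30% of genes lay. Lepr was close to it, with a mean of 3.06 and 9 of 16 arrays below the cutoff, so small differences in Lepr sit near the floor of the array.

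Leptin, prolactin and growth hormone bind receptors without enzyme activity of their own, which recruit Janus kinases. The kinases phosphorylate STAT proteins, which enter the nucleus as dimers and bind DNA. Leptin acts mainly through STAT3, whereas prolactin and growth hormone act mainly through STAT5. The SOCS proteins and CIS, the product of Cish, are made in response to the same signals and damp them. Prolactin and the placental lactogens are known for the growth of beta cells in pregnancy, and SOCS3 for restraining leptin, interleukin and insulin signals.

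Islets of mice from 1 colony were isolated and picked by hand, and total RNA was hybridised to Affymetrix Mouse Gene ST arrays. The obese groups were C57BL/KsJ db/db mice, which lack the long form of the leptin receptor and are called diabetes-prone in the study's title, and C57BL/6J ob/ob mice, which lack leptin and are called diabetes-resistant. Lean controls of each strain were sampled beside them, and every group was taken at 6 and at 16 weeks. The larger table held 2 arrays in each of 8 groups. A smaller table, from a related array design, held 1 further lean KsJ and 1 further db/db array of 16 weeks, called replicate 3 below. The labels do not say whether a lean control was a littermate, which alleles it carried, or whether an array held 1 animal or a pool, so p-values measure only the spread between these samples. Both obese groups are whole-body mutants, so a difference in islets cannot be told apart from the obesity or glycaemia of the mouse. The Lepr cluster is not resolved by receptor form and does not check the db/db label.

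Markers of beta, alpha and delta cells were above the cutoff on every array. Those of other tissues varied between arrays of 1 group. The mean of 5 measured acinar markers was 12.95 on lean KsJ 16-week replicate 2 and 10.01 on replicate 1. The mean of 6 enterocyte markers was 11.16 on lean 6J 6-week replicate 2 against 4.18 on its partner, and 9.72 on db/db 16-week replicate 2 against 6.80. The Y-linked gene Uty was above 7 on 5 of 16 arrays, namely both 6-week ob/ob arrays, the first 6-week lean 6J array and the first lean KsJ array of each age, so the sexes were mixed, and no label gives the sex. Where lean KsJ 16-week replicate 2 is left out below, the lean KsJ array that remains read 7.86 for Uty. The 16-week db/db arrays read 2.29 and 2.61, and the 16-week lean 6J arrays 2.17 and 2.26. In every such setting sex cannot be told apart from genotype or strain. In bulk islets, fewer cells of a type and less RNA per cell cannot be told apart.

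Across the 4 comparisons of obese with lean islets, none of the 9 genes passed limma's test at an adjusted p below 0.05. Differences below are on the log2 scale, obese minus lean, with the standard error of the fit and n = 2 arrays a group. In 16-week db/db islets Socs3, Lepr and Ghr read higher and Socs1 lower than in lean islets on both arrays. In 16-week ob/ob islets Socs2, Stat3 and Stat5b read lower, and Socs1 and Socs3 higher, than in lean islets on both arrays. Arrays lay apart in this way for 4 of the 9 and 43.2% of all genes in 16-week db/db islets. In 16-week ob/ob islets they did so for 5 of the 9 and 61.4% of all genes. Ghr stayed within 0.57 over the 16 arrays of the larger table. The median difference of all genes in 16-week db/db islets was 0.18, which median centring moved to -0.16. With centred arrays Socs3 differed there by 0.50, Lepr by 0.47 and Socs1 by -0.93, with the same signs as before. The sign of the Ghr difference turned.

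**Figure D1:**
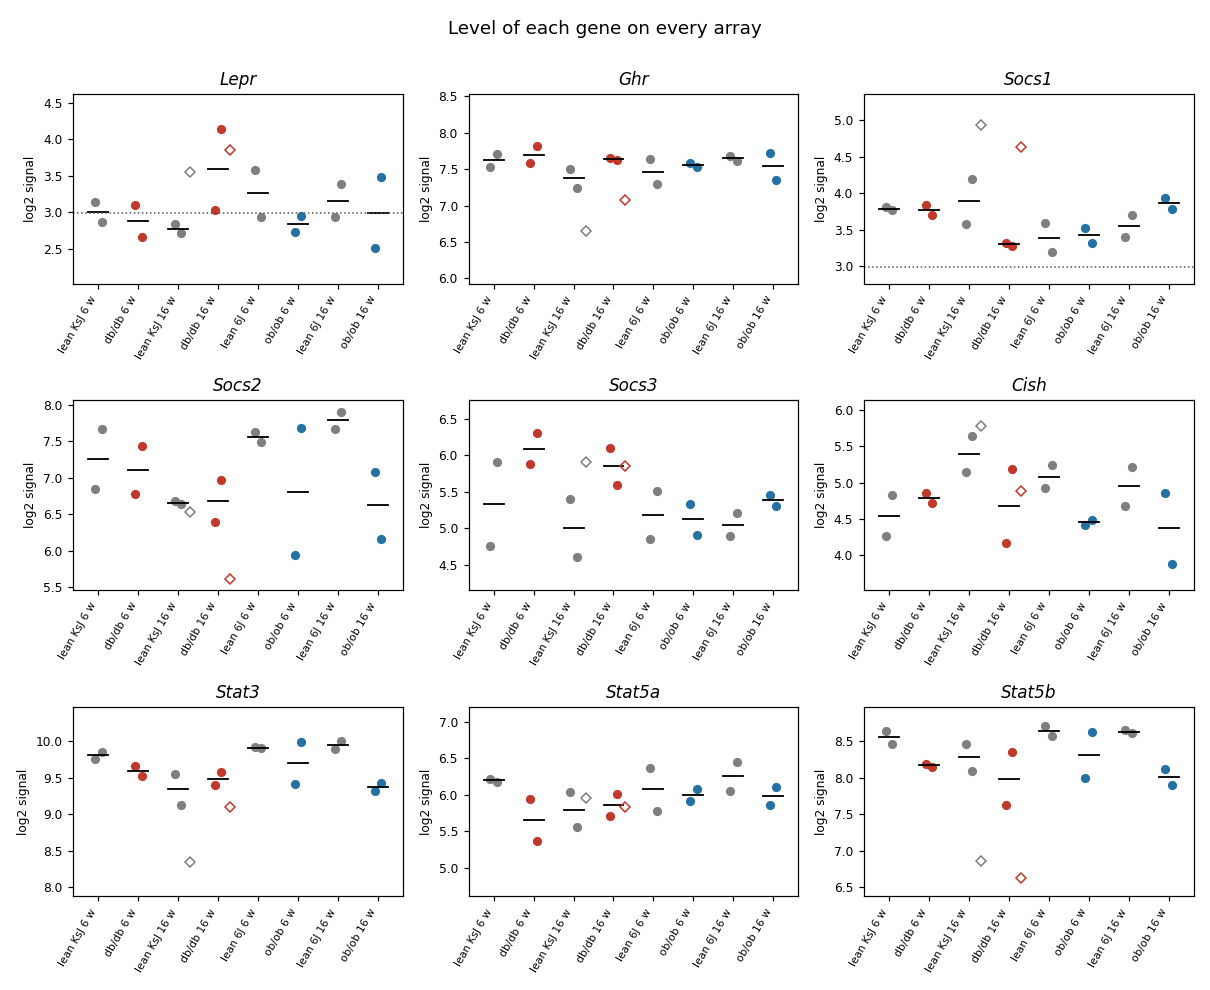
Log2 signal of each of the 9 genes (1 panel a gene, each with its own vertical scale) on every array, by group along the horizontal axis; filled points are arrays of the larger table, bars their group means, open diamonds the 2 arrays of the smaller table, and the dotted line the cutoff for dim genes. Socs3 sits highest in db/db islets, Socs2 highest in lean 6J islets of 16 weeks, by group mean, and the Ghr points of the larger table span 0.57.

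Lepr encodes the receptor that is mutated in db/db mice. It read 3.14 and 2.87 in lean KsJ and 3.10 and 2.66 in db/db islets of 6 weeks, and 2.84 and 2.72 in lean KsJ and 3.04 and 4.14 in db/db islets of 16 weeks. In the other strain it read 3.59 and 2.94 in lean 6J and 2.73 and 2.94 in ob/ob islets of 6 weeks, and 2.93 and 3.39 in lean 6J and 2.51 and 3.49 in ob/ob islets of 16 weeks. Only the 16-week db/db arrays lay apart from their lean arrays, and 1 of them, replicate 2, carried most of the distance. The difference there was 0.81 ± 0.40 (95% interval -0.061 to 1.69, limma, adjusted p = 0.233), and it was 0.26 without db/db replicate 2. That array also had the higher mean of enterocyte markers (9.72 against 6.80) and of 5 stellate cell and pericyte markers (8.46 against 7.25). The stellate means were 5.74 and 6.04 on the lean arrays, and the part of such cells in the Lepr value was not tested. In the other 3 comparisons Lepr differed by -0.13, -0.43 and -0.16, with overlapping arrays.

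Ghr, the growth hormone receptor, was far above the cutoff on every array and varied least of the 9 genes. It read 7.53 and 7.71 in lean KsJ and 7.58 and 7.81 in db/db islets of 6 weeks, then 7.51 and 7.24 in lean KsJ and 7.65 and 7.63 in db/db islets of 16 weeks. On the 6J background it read 7.64 and 7.29 in lean and 7.58 and 7.54 in ob/ob islets of 6 weeks, then 7.68 and 7.61 in lean and 7.71 and 7.36 in ob/ob islets of 16 weeks. Its 8 group means spanned 0.32, and the largest gap within a group was 0.36. The 4 differences from lean islets lay between -0.11 and 0.26, and their 95% intervals between -0.53 and 0.68, and the sign of the largest, at 16 weeks in db/db islets, turned under quantile normalization (-0.019) and median centring (-0.078). The order of the group means, from db/db islets of 6 weeks at 7.70 to lean KsJ islets of 16 weeks at 7.38, had no step between neighbours beyond the spread of 1 array.

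Of the signal carriers, Stat3, Stat5a and Stat5b lie side by side on chromosome 11. Stat3 mediates leptin and interleukin-6 signals. It read 9.76 and 9.86 in lean KsJ and 9.66 and 9.52 in db/db islets of 6 weeks, and 9.56 and 9.13 in lean KsJ and 9.40 and 9.57 in db/db islets of 16 weeks. It read 9.92 and 9.91 in lean 6J and 9.41 and 9.99 in ob/ob islets of 6 weeks, and 9.90 and 10.01 in lean 6J and 9.32 and 9.43 in ob/ob islets of 16 weeks. The ob/ob arrays of 16 weeks lay below both lean 6J arrays of their age, by -0.58 ± 0.21 (95% interval -1.04 to -0.12, limma, adjusted p = 0.202). Arrays of these groups lay apart for 61.4% of all genes. In db/db islets the difference was -0.22 at 6 weeks, with both arrays below the lean ones, and 0.14 at 16 weeks, with overlap and a turned sign under quantile normalization (-0.12) and median centring (-0.20).

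Stat5b carries growth hormone and prolactin signals. In KsJ mice it read 8.65 and 8.47 in lean and 8.18 and 8.15 in db/db islets of 6 weeks, and 8.46 and 8.10 in lean and 7.63 and 8.35 in db/db islets of 16 weeks. In 6J mice it read 8.72 and 8.57 in lean and 8.002 and 8.63 in ob/ob islets of 6 weeks, and 8.65 and 8.61 in lean and 8.12 and 7.90 in ob/ob islets of 16 weeks. All 4 obese means lay below their lean means, by -0.39, -0.29, -0.33 and -0.62, and the arrays lay apart at 6 weeks in db/db and at 16 weeks in ob/ob islets. The share of all genes with 4 lower means was not computed. With single arrays left out, the 16-week db/db difference ran from -0.66 to 0.072. The 16-week ob/ob difference, -0.62 ± 0.26, had a 95% interval of -1.20 to -0.045 (limma, adjusted p = 0.269). The order of group means ran from lean 6J islets of 6 weeks (8.65) to db/db islets of 16 weeks (7.99), and no step between neighbours exceeded the spread of 1 array.

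Stat5a, the close relative of Stat5b, read 6.22 and 6.18 in lean KsJ and 5.94 and 5.37 in db/db islets of 6 weeks, and 6.03 and 5.55 in lean KsJ and 5.71 and 6.02 in db/db islets of 16 weeks. The 6J arrays read 6.37 and 5.77 in lean and 5.91 and 6.08 in ob/ob islets of 6 weeks, and 6.06 and 6.45 in lean and 5.86 and 6.11 in ob/ob islets of 16 weeks. Only the 6-week db/db arrays lay apart from lean, by -0.54 ± 0.27 (limma, adjusted p = 0.624). Over the 16 arrays Stat3 and Stat5b had a Pearson correlation of 0.82, Stat3 and Stat5a 0.64, and Stat5a and Stat5b 0.58. These are descriptions over arrays that share groups and normalization.

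With ob/ob arrays of 16 weeks low in Stat3 and Stat5b, some cell markers differed too. The mean of 3 alpha cell markers was 10.61 and 10.86 on those arrays against 11.38 and 11.36 on the lean ones. For 3 delta cell markers it was 8.64 and 8.72 against 9.63 and 9.47, and for 6 beta cell markers 10.63 and 10.68 against 10.95 and 10.98. The beta marker Ins2, however, read 12.15 and 12.14 against 11.91 and 12.01. The alpha marker Ttr read 13.13 and 13.06 against 13.12 and 12.98. The other markers of these endocrine cells read lower on both ob/ob arrays than on both lean ones. Acinar means were 9.10 and 8.77 against 8.06 and 7.26. With the marker means of acinar cells and enterocytes as covariates, Stat3 differed by -0.46 and Stat5b by -0.63, neither called, and the part of the endocrine cell types was not tested.

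The feedback genes are known targets of STAT proteins. STAT dimers bind palindromes of the form TTCNNNGAA, which reads the same on both strands. The motif was searched in the 250 bases before each annotated start in a RefSeq promoter table (GRCm38.p6), where 7.02% of 32851 windows hold it. The table had 15 windows for 9 of the 10 genes, and Socs2 was not among them. The motif was in 2 windows, that of Socs3 and 1 of 3 of Prlr, and both are shown, since no other window of these genes held a match, with the motif in capitals and 10 bases on each side.
Socs3: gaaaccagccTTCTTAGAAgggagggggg
Prlr: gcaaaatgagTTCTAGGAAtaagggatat
The Socs3 site lies at chr11:117969502-117969530 on the minus strand, and its motif begins 154 bases before a start that lies inside the gene's annotated span. The Prlr site lies at chr15:10223786-10223814 on the plus strand, 110 bases before a start. The windows of Cish, Socs1, Lepr, Ghr, Stat3, Stat5a and Stat5b had no such letters, which says nothing of sites elsewhere. A match describes the letters only, and no binding was measured.

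Socs3, the gene with the motif before its start, restrains leptin and interleukin-6 receptors. It read 4.75 and 5.90 in lean KsJ and 5.88 and 6.30 in db/db islets of 6 weeks, and 5.40 and 4.60 in lean KsJ and 6.11 and 5.60 in db/db islets of 16 weeks. Its 6J values were 4.85 and 5.51 in lean and 5.33 and 4.91 in ob/ob islets of 6 weeks, and 4.89 and 5.21 in lean and 5.45 and 5.31 in ob/ob islets of 16 weeks. The db/db groups had the highest means of all 8 groups, 6.09 and 5.85. The step from 5.85 down to ob/ob islets of 16 weeks (5.38) was 0.47, against a spread of 0.40 for 1 array. No other step in the 9 orders exceeded that spread for its gene. The step runs between strains, and the share of all genes with such a step was not computed. Socs3 differed from lean by 0.77 ± 0.40 in db/db islets of 6 weeks (95% interval -0.11 to 1.64, limma, adjusted p = 0.629), where a lean array overlapped the obese ones. That value was 0.19 without lean KsJ replicate 1 and 1.34 without lean KsJ replicate 2. The difference at 16 weeks was 0.85 ± 0.40, with the arrays apart (95% interval -0.024 to 1.72, limma, adjusted p = 0.215). In ob/ob islets it was -0.058 at 6 weeks and 0.33 at 16 weeks. On the smaller table's arrays Socs3 read 5.91 in lean and 5.85 in db/db islets, so the third pair did not show the difference of the larger table. Without the acinar-rich lean KsJ replicate 2 the 16-week value was 0.45. The lean array then left differed in Uty from both db/db arrays, so sex and genotype cannot be told apart there.

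Socs1 inhibits interferon and other cytokine signals. In KsJ islets it read 3.81 and 3.76 in lean and 3.83 and 3.70 in db/db mice of 6 weeks, and 3.58 and 4.19 in lean and 3.32 and 3.28 in db/db mice of 16 weeks. In 6J islets it read 3.59 and 3.19 in lean and 3.53 and 3.32 in ob/ob mice of 6 weeks, and 3.40 and 3.70 in lean and 3.93 and 3.79 in ob/ob mice of 16 weeks. The 16-week db/db arrays lay below the lean ones and the 16-week ob/ob arrays above theirs. The db/db difference was -0.59 ± 0.22 (95% interval -1.07 to -0.11, limma, adjusted p = 0.131). The higher lean array was the acinar-rich replicate 2. Without it the difference was -0.29, and without lean KsJ replicate 1 it was -0.89 and was called (limma, adjusted p = 0.0103), in a fit that called 30.2% of all genes. In the smaller table Socs1 read 4.93 in lean and 4.63 in db/db islets.

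Socs2, a target of STAT5 that restrains growth hormone signals, varied most between arrays of 1 group, by up to 1.73. It read 6.84 and 7.67 in lean KsJ and 6.78 and 7.44 in db/db islets of 6 weeks, and 6.68 and 6.64 in lean KsJ and 6.40 and 6.97 in db/db islets of 16 weeks. For 6J mice the values were 7.63 and 7.49 in lean and 5.95 and 7.68 in ob/ob islets of 6 weeks, and 7.68 and 7.91 in lean and 7.08 and 6.17 in ob/ob islets of 16 weeks. Both ob/ob arrays of 16 weeks lay below both lean 6J arrays of that age, in a comparison where arrays lay apart for 61.4% of all genes. The difference from lean islets of that age was -1.17 ± 0.51, the most negative of the 9 genes in that comparison (95% interval -2.28 to -0.056, limma, adjusted p = 0.279). It was -0.71 without ob/ob replicate 2 and -1.63 without replicate 1. In db/db islets of 16 weeks Socs2 differed by 0.025, with overlap. A second cluster of the gene gave -0.69 there, and the pair of arrays in the smaller table gave -0.91.

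Cish encodes CIS, an early feedback inhibitor of STAT5. It read 4.26 and 4.83 in lean KsJ and 4.85 and 4.72 in db/db islets of 6 weeks, and 5.15 and 5.64 in lean KsJ and 4.17 and 5.18 in db/db islets of 16 weeks. The 6J values were 4.92 and 5.24 in lean and 4.42 and 4.49 in ob/ob islets of 6 weeks, and 4.68 and 5.21 in lean and 4.86 and 3.88 in ob/ob islets of 16 weeks. Only the 6-week ob/ob arrays lay apart from lean, by -0.63 ± 0.39 (limma, adjusted p = 0.804). At 16 weeks the difference was -0.72 ± 0.39 in db/db (95% interval -1.57 to 0.13, limma, adjusted p = 0.278) and -0.58 ± 0.39 in ob/ob islets (limma, adjusted p = 0.50), both with overlap. The db/db value was -0.21 without replicate 1 and -1.22 without replicate 2, and the ob/ob value -1.06 and -0.086 likewise.

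**Figure D2:**
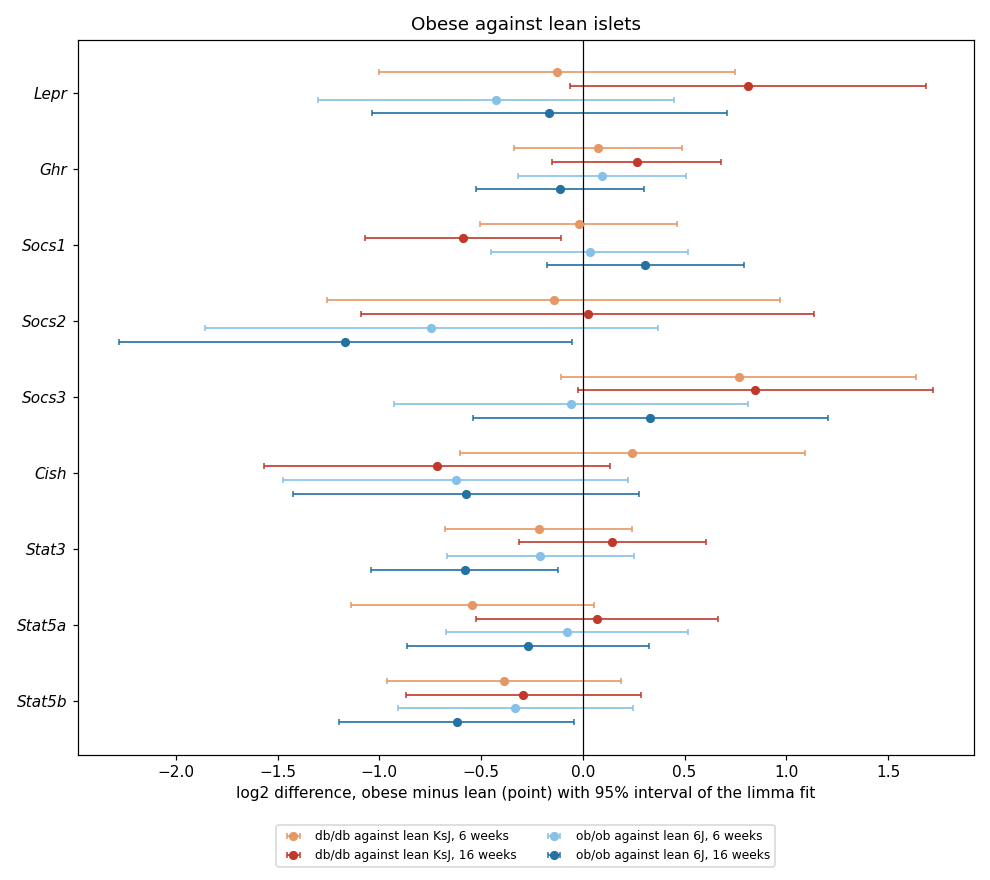
Log2 difference between obese and lean islets (points) with the 95% interval of the limma fit (bars) for the 9 genes in the 4 obese comparisons, 2 arrays a group. The intervals of Socs1 in 16-week db/db and of Socs2, Stat3 and Stat5b in 16-week ob/ob islets leave out 0 before adjustment, and none of the 36 differences is called.

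Counts over the 9 genes were read beside those over all 15526 genes tested. In 6-week db/db islets limma called 0 of the 9 genes and 0.0258% of all genes, with none of the 9 and 8.52% of all genes at an unadjusted p below 0.05. In 16-week db/db islets it called 0 of 9 against 5.8% of all genes, with 1 of 9 (Socs1) and 24.5% of all genes below an unadjusted 0.05. For ob/ob islets of 6 weeks, 0 of 9 and 0% of all genes were called, with none of the 9 and 6.15% of all genes below an unadjusted 0.05. For ob/ob islets of 16 weeks, 0 of 9 and 0.0708% of all genes were called, with 3 of 9 (Socs2, Stat3 and Stat5b) and 16.6% of all genes below an unadjusted 0.05. The median difference of the 9 genes was -0.13, 0.070, -0.21 and -0.27 in these 4 comparisons, against -0.024, 0.18, -0.0031 and -0.026 over all genes. Obese and lean arrays lay apart for 3, 4, 1 and 5 of the 9 genes, against 49.8%, 43.2%, 36.8% and 61.4% of all genes.

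Whether db/db and ob/ob differences were unequal was tested as an interaction in the same fit. At 16 weeks limma called 0 of the 9 genes and 0.0129% of all genes, with 2 of 9 and 15.6% of all genes at an unadjusted p below 0.05. These were Socs1, whose db/db difference was below its ob/ob difference by -0.90 ± 0.31 (95% interval -1.58 to -0.21, limma, adjusted p = 0.238), and Stat3, at 0.72 ± 0.30 (95% interval 0.076 to 1.37, limma, adjusted p = 0.288). Socs2 was at 1.19 ± 0.72 and Lepr at 0.98 ± 0.56 (limma, adjusted p = 0.409 and 0.398). Over all genes the median of this value was 0.25, with 67.7% above 0. At 6 weeks limma called 0 of the 9 and 0% of all genes, with none of the 9 and 2.25% of all genes below an unadjusted 0.05. Cish had the most positive value, 0.87 ± 0.55, and Stat5a the most negative, -0.47 ± 0.38.

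Age was compared within each genotype, 16 minus 6 weeks. limma called 0 of the 9 genes in db/db islets, where it called 0.0644% of all genes, and 0 of the 9 and 0% of all genes in ob/ob, lean KsJ and lean 6J islets. At an unadjusted p below 0.05 the counts were 0, 0, 1 and 0 of the 9 genes, against 7.61%, 3.9%, 26.3% and 2.87% of all genes. The 1 gene was Stat3 in lean KsJ islets, at -0.46 ± 0.21 (limma, adjusted p = 0.186). Cish read higher on both lean KsJ arrays of 16 weeks than on both of 6 weeks, by 0.85 ± 0.39 (limma, adjusted p = 0.190). Lean KsJ arrays of the 2 ages lay apart for 7 of the 9 genes, against 52.2% of all genes, and the acinar means there were 10.93 and 9.46 at 6 and 10.01 and 12.95 at 16 weeks. In db/db islets Lepr differed by 0.71 ± 0.40 and Socs1 by -0.47 ± 0.22 between the ages, and in ob/ob islets Socs1 differed by 0.44 ± 0.22. The ob/ob arrays read 7.25 and 7.61 for Uty at 6 weeks and 2.21 and 2.33 at 16 weeks. Age and sex thus cannot be told apart in ob/ob islets. In lean 6J islets the 9 differences lay between -0.13 and 0.23.

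The lean strains were compared as KsJ minus 6J. The titles of the larger table's samples give the strains different codes, and strain cannot be told apart from what those codes stand for. At 6 weeks limma called 0 of the 9 and 0.258% of all genes, with none of the 9 and 6.65% of all genes at an unadjusted p below 0.05. At 16 weeks it called 0 of the 9 and 4.12% of all genes, with 2 of 9 and 29.5% of all genes below an unadjusted 0.05. The 2 were Socs2, at -1.13 ± 0.51 (limma, adjusted p = 0.164), and Stat3, at -0.61 ± 0.21 (limma, adjusted p = 0.0974, the smallest adjusted p of any of the 9 genes in the 12 comparisons). Both lean KsJ arrays of 16 weeks lay below both lean 6J arrays for these genes, and also for Lepr, Ghr, Stat5a and Stat5b. The arrays of the strains lay apart for 55.5% of all genes, and the median difference over all genes was -0.25, with 31.1% above 0. The 16-week means of Socs2 and Stat3 were 6.66 and 9.35 in lean KsJ, 6.68 and 9.49 in db/db, 6.62 and 9.37 in ob/ob, and 7.79 and 9.96 in lean 6J islets, so lean 6J stood above the other 3 groups of that age.

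The smaller table gave 1 array a group and no test. Its db/db array read above its lean array for Lepr (3.86 against 3.55), Ghr (7.08 against 6.65) and Stat3 (9.10 against 8.34). It read below for Socs1, Socs2 (5.62 against 6.53), Socs3, Cish (4.89 against 5.77), Stat5a (5.84 against 5.96) and Stat5b (6.63 against 6.86). The lean Lepr value lay below that table's own 30th percentile, 3.59. The pair thus had the sign of the larger table's 16-week db/db difference for Lepr, Ghr, Socs1, Cish, Stat3 and Stat5b, and the other sign for Socs2, Socs3 and Stat5a. The median difference over all genes in the pair was 0.091. Its lean array was rich in acinar markers (12.74 against 11.68) and its db/db array in enterocyte markers (10.08 against 4.18).

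For 3 of the genes a second cluster gave a further reading. The second Cish cluster, with a mean of 4.31, followed the first over the 16 arrays (r = 0.84) and differed by -0.99 in 16-week db/db, -0.64 in 6-week ob/ob and -0.15 in 16-week ob/ob islets. The second Socs2 cluster (mean 3.59, r = 0.80) differed by -1.26 in 16-week ob/ob islets, near the first, and by -0.69 in 16-week db/db islets, where the first gave 0.025. The second Socs3 cluster, near the cutoff with a mean of 3.23, followed the first weakly (r = 0.23) and gave 0.085 in 16-week db/db islets, so the 2 Socs3 clusters disagreed.

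Genes that ran most like a gene were named where its highest and lowest group means differed by 1 or more, by Pearson correlation over 16 arrays. Socs2 was followed most closely by Iqcc (0.90), Lrrtm1 (0.86) and Nr1d1 (0.85), the last a nuclear receptor of the circadian clock. Socs3 ran most like Zfp36 (0.83) and Dusp6 (0.83), early response genes for an RNA-binding protein and a phosphatase of MAP kinases, and Mfge8 (0.82). For Cish they were Prodh (0.75), Gnrh1 (0.72) and Epha8 (0.72). Socs2 itself correlated with Stat3 (0.77) and Stat5b (0.75), and the lowest correlation between any pair of the 9 genes was that of Socs3 with Stat5b (-0.49).

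Other genes of the pathway were read from 7 lists, which were chosen with earlier results of these data known. Counts of calls in a list are therefore descriptions and no test of the list. In 16-week db/db islets 5 of 17 tested cytokine receptor genes were called by limma, against 5.8% of all genes. Il6ra, the interleukin-6 receptor, read 10.28 and 10.40 in db/db against 9.64 and 9.04 in lean islets and rose by 1.01 ± 0.21 (limma, adjusted p = 0.0264). Ifnar2, an interferon receptor chain, rose by 1.07 ± 0.23 (limma, adjusted p = 0.0287) from 7.71 and 8.04 to 8.83 and 9.05. Il4ra, the interleukin-4 receptor, rose by 1.54 ± 0.37 (limma, adjusted p = 0.0379) from 5.32 and 4.17 to 6.49 and 6.08. Lifr, the leukaemia inhibitory factor receptor, fell by 1.29 ± 0.32 on the log2 scale (limma, adjusted p = 0.0436), from 9.44 and 10.07 to 8.40 and 8.53. Osmr, the oncostatin M receptor and the last of the 5, was named after its values were seen, and rose by 1.14 ± 0.29 (limma, adjusted p = 0.0454). In the smaller pair the same 5 genes differed by 1.57, 1.05, 1.63, -1.48 and 0.79. The lean array of that pair, like lean KsJ replicate 2, was rich in acinar markers, with means of 12.74 and 12.95 against 10.01 on replicate 1. The median over the 17 genes was 0.23, against 0.18 over all genes. Markers of other cell types differed on the same arrays. The means of db/db replicates 1 and 2, against lean replicates 1 and 2, were 7.25 and 8.46 against 5.74 and 6.04 for 5 stellate cell and pericyte markers, and 6.50 and 6.21 against 5.48 and 4.86 for 5 macrophage markers. They were 7.82 and 8.25 against 7.61 and 6.93 for 5 endothelial markers, and 6.80 and 9.72 against 4.14 and 6.15 for 6 enterocyte markers. The part of stellate, macrophage and endothelial cells in these calls was not tested.

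The 5 differences kept their sign without any single array, but not their calls. Without the acinar-rich lean KsJ replicate 2 Il6ra stood at 0.71, Ifnar2 at 1.23, Il4ra at 0.96, Lifr at -0.98 and Osmr at 0.84, none of them called (limma, adjusted p = 0.0843, 0.0643, 0.152, 0.171 and 0.176), and leaving out either db/db array also ended all 5 calls. Under median centring Il6ra, Ifnar2, Il4ra and Osmr stood at 0.67, 0.72, 1.19 and 0.80, not called. Between lean strains at 16 weeks limma called 2 of the 17 receptor genes, against 4.12% of all genes. Il6ra differed by -1.15 and Csf2ra, a receptor chain for a colony-stimulating factor, by -0.95 (KsJ minus 6J, limma, adjusted p = 0.0194 and 0.0328), and both calls were lost without lean KsJ replicate 2 (limma, adjusted p = 0.0792 and 0.104) and without either lean 6J array. The Il6ra levels of 16-week db/db islets (10.28 and 10.40) were near those of lean 6J islets of that age (10.47 and 10.51).

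Among 15 tested STAT5 targets and genes that lactogens induce in islets, limma called 2 in 16-week db/db islets, against 5.8% of all genes. Tnfrsf11b, which encodes osteoprotegerin, read 8.53 and 8.32 in db/db against 5.96 and 4.54 in lean islets and rose by 3.18 ± 0.60 (limma, adjusted p = 0.0212). Ivd, a mitochondrial enzyme of leucine breakdown, fell by 1.38 ± 0.27 (limma, adjusted p = 0.0231). In 16-week ob/ob islets the same genes differed by 1.77 ± 0.60 and -0.79 ± 0.27, not called (limma, adjusted p = 0.187 and 0.190). In the smaller db/db pair, with its acinar-rich lean array, they differed by 2.48 and -1.26. Both calls were lost without lean KsJ replicate 2, at 2.47 and -1.03 (limma, adjusted p = 0.0871 and 0.0861), and without either db/db array. Tph1, the serotonin-making enzyme that prolactin raises in islets, was dim and untested. The median of the 15 genes was 0.40 in db/db and 0.18 in ob/ob islets of 16 weeks, against 0.18 and -0.026 over all genes.

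limma called 0 of 6 Janus kinases and other STATs, 0 of 12 other inhibitors, 0 of 6 receptor adaptors, 0 of 14 STAT3 targets and 0 of 2 ligands in 16-week db/db islets, against 5.8% of all genes. At an unadjusted p below 0.05 the counts were 1, 1, 3, 3 and 1, against 24.5% of all genes. The nearest were the insulin receptor substrate gene Irs2, at 1.56 ± 0.41 (limma, adjusted p = 0.0508), the transcription factor gene Nfil3, at 1.05 ± 0.29 (limma, adjusted p = 0.0569), and Ptpn1, the gene of a phosphatase that damps leptin and insulin signals, at 0.95 ± 0.30 (limma, adjusted p = 0.0870). Without lean KsJ replicate 2 Irs2 stood at 0.86, Nfil3 at 0.47 and Ptpn1 at 0.34, and without lean KsJ replicate 1 at 2.27, 1.63 and 1.55. In the smaller pair, with its acinar-rich lean array, Irs2 differed by 1.36 and Ptpn1 by 1.08, but Nfil3 by -0.50. Jak1 was at -0.56 and Jak2, the kinase of all 3 hormone receptors, at 0.36. The median of the 14 STAT3 targets in db/db islets was 0.55 at 6 and 0.50 at 16 weeks, against -0.024 and 0.18 over all genes. In ob/ob islets it was -0.076 and 0.065, against -0.0031 and -0.026 over all genes. Of the ligand genes, Lep, Prl, Gh, Il6 and Lif were dim.

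In 16-week ob/ob islets limma called none of the 72 tested genes in the 7 lists, against 0.0708% of all genes, with 12 of 72 and 16.6% of all genes at an unadjusted p below 0.05. The receptor gene Cntfr differed by -1.40 ± 0.26, Il6st, the shared signalling chain of interleukin-6 receptors, by -1.09 ± 0.26, and Irs1 by -1.47 ± 0.30 (limma, adjusted p = 0.0632, 0.0964 and 0.0721). Jak1 differed by -0.90 ± 0.25 and Stat6 by -0.64 ± 0.19. Of the inhibitors, 1 of 12 was above 0 there, with a median of -0.20, against 10 of 12 with a median of 0.13 in 16-week db/db islets. Over all genes 47.5% were above 0 with a median of -0.026 in ob/ob islets, and 65.7% with a median of 0.18 in db/db islets. At 6 weeks limma called none of the listed genes in either model, against 0.0258% of all genes in db/db and 0% in ob/ob islets. At an unadjusted p below 0.05 there were 8 of 72 in db/db and 5 of 72 in ob/ob islets, against 8.52% and 6.15% of all genes.

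**Figure D3:**
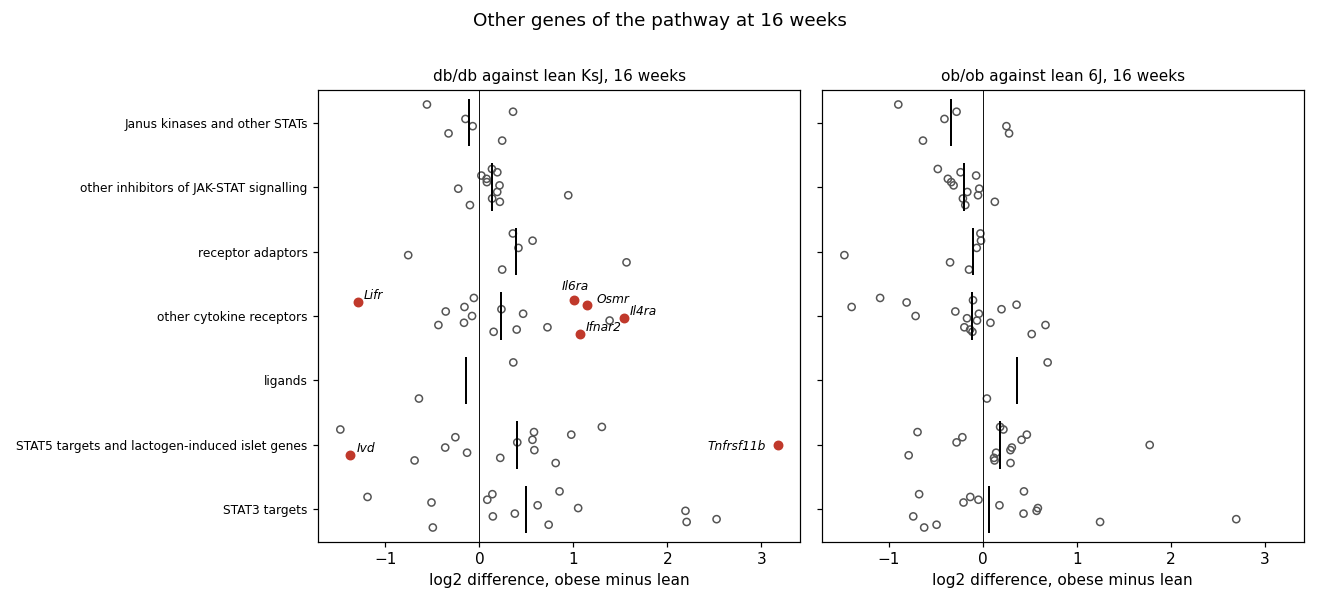
Log2 difference between obese and lean islets of 16 weeks for each tested gene of the 7 pathway lists (circles), db/db on the left and ob/ob on the right; filled circles are genes called by limma and vertical bars the list medians. The called genes are 5 cytokine receptors and 2 of the STAT5 and lactogen list, all in db/db islets.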

How the data were processed

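Values were the log2 signals per transcript cluster that the authors deposited, 41034 clusters a table. MAS5, RMA and Partek are named, with no role or version, in the submitters' processing notes, and the background correction is not given in the sources used here. Cluster genes came from GEO's platform annotation, and 23521 clusters named 1 gene. Where a gene had several clusters, that of the highest mean was kept. Genes whose mean lay under the 30th percentile (2.99) were called dim and left untested, which left 15526. Tests stayed within the larger table, since the sources do not say whether the tables were normalized together.

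limma 3.58.1 (R 4.3.3) estimated a mean for each of the 8 groups, with 8 residual degrees of freedom in common, and eBayes moderated the variances. Two-sided p-values were adjusted over all tested genes by the Benjamini-Hochberg method, and adjusted p below 0.05 was a call. Intervals are unadjusted. With 2 arrays a group, the standard error of a difference equals the moderated spread of 1 array, so precision is limited by the number of arrays. The script was tested on simulated data. Array medians were 3.51 to 3.83, and 4.10 and 3.91 in the smaller table. The labels give no replicate numbers, so nothing was paired.

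The genes and the 7 lists were chosen with earlier results of these data known. All 9 genes are named. Of the lists, up to 4 called genes with the smallest p a list and comparison are named, or up to 2 with the smallest unadjusted p where none was called, and Xist, Uty, Ctrc and Sis were kept as controls. Some listed genes were not analysed here. The alternatives were other filters, normalizations, variance models, weights, covariates (marker means, Xist), arrays left out, the compared groups alone, the mean over clusters, and both tables joined. Figures were drawn with matplotlib 3.10.9.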

Additional observations from a re-analysis of the deposited data

How the results depend on the processing

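The count of the 9 genes called stayed at 0 in 324 of 329 alternative settings over the 12 comparisons. Array weights called 2 in 16-week ob/ob islets, Stat3 and Stat5b (limma, adjusted p = 0.0131 and 0.0305), in a fit that called 19.1% of all genes. Leaving out lean KsJ 16-week replicate 1 gave the other 4. With single arrays left out the counts ranged from 0 to 1 in 16-week db/db islets (Socs1) and in the age comparison of lean KsJ islets (Stat3), and from 0 to 2 between lean strains and between models at 16 weeks (Socs1 and Stat3 in both). That fit leaves the acinar-rich array alone in its group, and it called 24 to 37.4% of all genes. An array left alone in a group is assumed to vary like those of other groups.

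Of 36 differences between obese and lean islets, 18 kept their sign in every alternative and 18 turned in at least 1. In 16-week db/db islets quantile normalization gave Ghr -0.019, Socs2 -0.29, Stat3 -0.12, Stat5a -0.26 and Ptpn6 -0.044. Median centring gave Ghr -0.078, Socs2 -0.32, Stat3 -0.20, Stat5a -0.27 and Ptpn6 -0.13 there, and Socs1 0.013 in 6-week db/db islets. Socs2 was also at -0.33 with the mean over clusters, -0.054 with a term for Xist, -0.28 without the 3 arrays rich in acinar or enterocyte markers, and -0.29 with both tables joined, and without those 3 arrays Stat3 was at -0.15 and Stat5a at -0.32. In 6-week ob/ob islets Socs1 was at -0.0049 and Socs3 at 0.031 under quantile normalization, and Socs3 at 0.0049 under median centring. There the marker covariates gave Ghr -0.093, Socs1 -0.096 and Socs3 0.12, the Xist term Socs3 0.20, and the fit without the 3 arrays Ghr -0.081, Socs1 -0.17 and Socs3 0.27. In 6-week db/db islets the covariates gave Socs1 0.11 and the Xist term Lepr 0.037. Quantile normalization gave Clcf1 -0.018 in 16-week ob/ob islets. The cause was not tested.

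With single arrays left out, values in 6-week db/db islets ran from -0.35 to 0.094 for Lepr, -0.042 to 0.19 for Ghr, -0.083 to 0.044 for Socs1, -0.56 to 0.27 for Socs2 and -0.040 to 0.53 for Cish. In 16-week db/db islets they ran from -0.26 to 0.31 for Socs2, -0.067 to 0.36 for Stat3, -0.17 to 0.31 for Stat5a, -0.66 to 0.072 for Stat5b and -0.086 to 0.81 for Ctf1. In 6-week ob/ob islets they ran from -0.081 to 0.27 for Ghr, -0.17 to 0.23 for Socs1, -1.61 to 0.12 for Socs2, -0.39 to 0.27 for Socs3, -0.50 to 0.080 for Stat3 and -0.38 to 0.22 for Stat5a. In 16-week ob/ob islets they ran from -0.66 to 0.33 for Lepr, -0.29 to 0.067 for Ghr and -0.077 to 0.16 for Clcf1.

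The 9 calls named among list genes kept their sign in every alternative, and each was lost with array weights, with the compared groups alone and without the 3 arrays. The count of all genes called in 16-week db/db islets, 900, was 43 without db/db replicate 2, 103 without replicate 1, 118 and 4687 without lean KsJ replicate 2 and 1, 178 under quantile normalization, 263 under median centring, 0 with array weights, 6 with the compared groups alone and 2084 with both tables joined. For 16-week ob/ob islets, 11 became 2969 with array weights and 1293 with the compared groups alone.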

Other observations

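Some STAT3 target genes, chosen here after their values were seen, had far larger spreads than any of the 9 genes. Lcn2, which encodes a siderophore-binding protein of inflamed tissue, read 6.59 and 8.23 in 16-week db/db islets and 5.11 and 5.33 in lean KsJ islets, and 8.17 against 4.92 in the smaller pair. In 6-week islets it read 6.44 and 7.17 in db/db and 4.84 and 5.70 in lean KsJ mice. A lean 6J array of 16 weeks read 7.71 and its partner 3.91, so the lean level itself varied. The 16-week db/db difference was 2.19 ± 0.95 (limma, adjusted p = 0.183). Reg3b, which encodes an antibacterial lectin, read 12.87 on the enterocyte-rich lean 6J array of 6 weeks and 5.497 on its partner.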
